A study of Arabidopsis thaliana with 8 samples.

Results

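Codons 2 to 50 are the stretch of a coding sequence that a ribosome reads right after it has left the start codon. Their members were the P sites of 28 nt ribosome footprints on nuclear transcripts of Arabidopsis thaliana with a coding sequence of at least 600 nt, leaving out AT2G01021, which lies within ribosomal DNA. The P site is the ribosomal site that holds the tRNA with the growing peptide, and codon 1 is the ATG. Of 21664056 footprints in 8 libraries, 629457 gave such a P site, against 1584106 in the reference window at nt 150 to 450 of the coding sequence and 55725 at codon 1. The 629457 P sites lay on 12363 of 22416 nuclear transcripts in the files, and 3288 transcripts had any P site at codon 1.

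Ribosome footprints came from inflorescences of 4 genotypes with 2 libraries each: hot3-2 dcl2 dcl4, hot3-2, dcl2 dcl4 and WT. HOT3 encodes eIF5B1, and its hot3-2 allele carries a T-DNA insertion. DCL2 and DCL4, absent from dcl2 dcl4, are Dicer-like enzymes that make small RNAs from long double-stranded RNA. The 4 libraries of hot3-2 dcl2 dcl4 and hot3-2 are called hot3-2 carriers below, and the 4 libraries of dcl2 dcl4 and WT non-carriers. Plants grew under 16 h of light and 8 h of dark, and lysates were prepared with cycloheximide, which stops elongating ribosomes. The labels give neither the age of the plants nor whether replicates were grown separately, so p-values measure only the spread between these libraries.

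In the last step of initiation, eIF5B bound to GTP helps the large ribosomal subunit join the small subunit at the start codon, and its release lets elongation begin. Ribosomes that pause at a codon leave more footprints there, and ribosomes that wait behind a slow one form a queue. A small subunit that does not start at the first AUG can go on scanning and start at a later one, in the same or in another reading frame. A start codon is often recognised better with a purine 3 bases before it and a G right after it.

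Depth ranged from 1972841 to 3588415 footprints per library, and 44957 to 122957 P sites per library fell into codons 2 to 50. These made up 11.15% to 11.76% of the 28 nt P sites on the same coding sequences, and 83.4% to 86.7% of them were in frame 0, the frame of the annotated start. The P site lay 12 nt from the 5′ end in 100% of 28 nt footprints. HOT3 itself had 2 and 0 P sites over codons 1 to 150 in hot3-2 dcl2 dcl4, 6 and 8 in hot3-2, 21 and 46 in dcl2 dcl4, with 40 and 35 in WT. The floral genes AP3, PI and SEP3 had 18 to 279 P sites in each library over the same codons, whereas the seed storage gene CRU1 had at most 1 and the root hair gene COBL9 at most 4. The floral genes AP1 and AG and the seed storage gene CRU3 were also chosen as markers. No transcript of these was present among those read, so they could not be used.

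The following sequences are shown because their P sites, as a share of the gene, were higher in all hot3-2 carriers than in all non-carriers, and they were chosen after their values were seen. Each is the coding sequence of a 28 nt footprint, read 5′ to 3′ from the TAIR10.1 genome with the RefSeq annotation, and capitals mark the ATG or CTG in the P site. A run that would begin before the start codon of its gene is printed from that start codon. All lie within a single coding exon. Other positions met the same condition and are not shown, the ATGs of AT3G49900, AT5G44320, AT2G01820 and GER1 and the CTGs of AT3G44620 and AT5G42050. Every ATG shown is followed by a G, whereas that of AT2G01820 is followed by an A and that of GER1 by a C.

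AT1G18720 codon 5: atgagtcgcataATGggattgttcgatc
GLX1 codon 40: ctttctagaaacATGgctgaggcttctg
GLY3 codon 39: ctccgatcagtgATGggttcgtcttctt
AOC4 codon 3: atgatcATGgcttcttctgctg
AT1G52510 codon 44: ccacgtcggagaATGgaaacagcggtgg
SGR4 codon 6: gtgacgtgtttgATGgatatgagcgaca
AT5G58720 codon 22: aaccttccggtgATGgaacgacgtcgga
AT3G12210 codon 12: cgatgttggagtATGgaaggaggctctg
UBA1 codon 37: ctgaatcttcgtCTGataagtcttcttc

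The first 4 ATGs are in frame 0, the next 3 in frame 1 and that of AT3G12210 in frame 2, where frame 1 and frame 2 begin 1 and 2 nt after the first base of the codon named. The CTG of UBA1 is in frame 1. The runs lie at chr1:6459631-6459658 on the minus strand for AT1G18720, chr1:3996033-3996060 on the plus strand for GLX1, chr1:19993121-19993148 on the minus strand for GLY3 and chr1:4547624-4547645 on the plus strand for AOC4. Those in frame 1 lie at chr1:19565115-19565142 on the minus strand for AT1G52510, chr5:15822039-15822066 on the plus strand for SGR4, chr5:23722895-23722922 on the minus strand for AT5G58720 and chr2:12857245-12857272 on the minus strand for UBA1. The run of AT3G12210 lies at chr3:3894866-3894893 on the plus strand.

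Footprint density was low right after the start codon in every library. Of the 6 windows into which codons 2 to 50 were split, codons 2 to 5 were the lowest in 7 of 8 libraries, and in replicate 2 of hot3-2 dcl2 dcl4 codons 6 to 10 were lower, with 0.632 against 0.642. Density is the number of P sites per nt divided by that in the reference window, summed over transcripts, so 1 means the level further into the coding sequence. Codon 3 was the lowest codon of the first 10 in both groups, with 0.493 ± 0.024 in hot3-2 carriers and 0.371 ± 0.020 in non-carriers (SD, n = 4 each). Codons 2 to 50 as a whole had densities of 0.851 and 0.818 in hot3-2 dcl2 dcl4, 0.845 and 0.846 in hot3-2, 0.787 and 0.786 in dcl2 dcl4, with 0.815 and 0.794 in WT. Thus all 8 libraries lay below 1, and the lowest carrier lay just above the highest non-carrier.

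**Figure D1:**
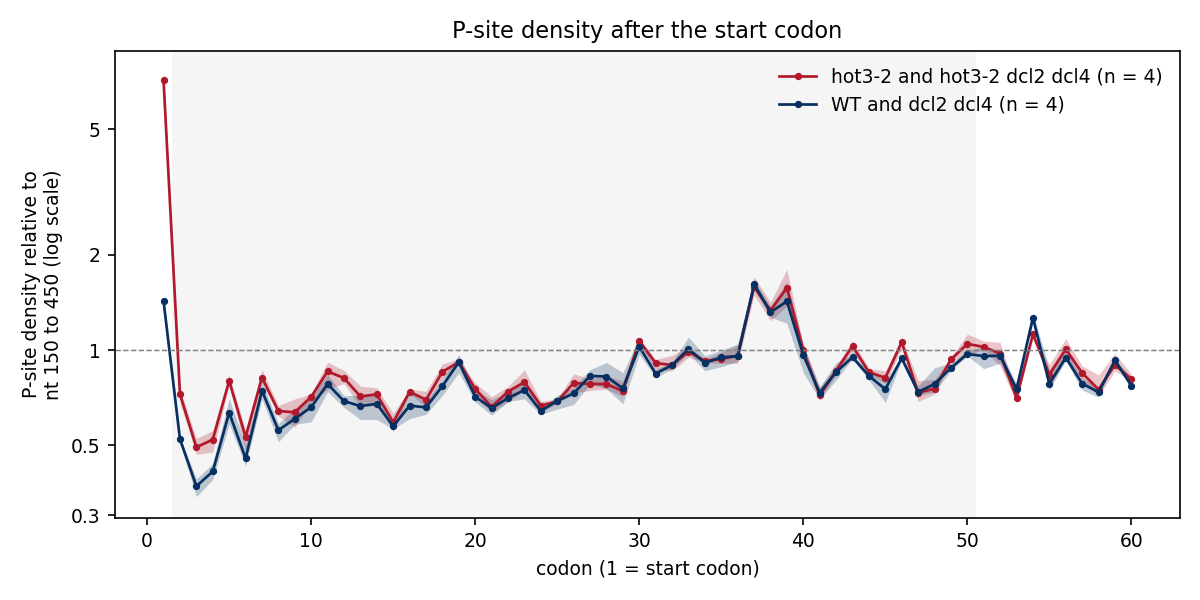
Mean P-site density at codons 1 to 60 relative to nt 150 to 450 on a log axis, for hot3-2 carriers (red) and non-carriers (blue), 4 libraries each, with bands from the lowest to the highest library and codons 2 to 50 shaded. The lines stand apart at codon 1 (7.13 against 1.43) and over codons 2 to 5, and run together over codons 21 to 40.

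The mean over codons 2 to 50 was 0.840 ± 0.015 in hot3-2 carriers and 0.796 ± 0.014 in non-carriers (SD, n = 4 each), a difference of 0.0443 (two-sided exact permutation p = 0.0286, which is the lowest that 4 against 4 libraries can give). The ratio of means was 1.06 for hot3-2 dcl2 dcl4 over dcl2 dcl4 and 1.05 for hot3-2 over WT. This whole-window call did not hold when each gene was weighted equally, where hot3-2 carriers had 0.884 and non-carriers 0.848 (exact p = 0.0857), nor with frame 0 alone (exact p = 0.0571). With any 1 library left out the groups still did not overlap, but the exact p was 0.0286 only without replicate 2 of hot3-2 dcl2 dcl4 and 0.0571 without each of the other 7. Libraries with the dcl2 dcl4 mutations averaged 0.810 ± 0.031 and libraries without them 0.825 ± 0.025 (SD, n = 4 each, exact p = 0.429). Both of these groups hold hot3-2 carriers and non-carriers, so their SD includes the hot3-2 difference. The ratio of dcl2 dcl4 to WT was 0.977, with 0.963 to 0.991 over library pairs. That of hot3-2 dcl2 dcl4 to hot3-2 was 0.987, with 0.967 to 1.007 over library pairs.

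Per codon, the difference between the groups was larger in codons 2 to 5 than in each of the other 5 windows. Codons 2 to 5 had 0.625 and 0.642 in hot3-2 dcl2 dcl4, 0.640 and 0.631 in hot3-2, 0.487 and 0.489 in dcl2 dcl4, with 0.482 and 0.483 in WT. The 2 groups did not overlap, and within each group the DCL background made little difference. The means were 0.635 ± 0.008 in hot3-2 carriers and 0.485 ± 0.003 in non-carriers, a ratio of 1.31 (SD, n = 4 each, exact p = 0.0286, adjusted over 6 windows 0.0571). The ratio was 1.299 for hot3-2 dcl2 dcl4 over dcl2 dcl4 and 1.32 for hot3-2 over WT.

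Single codons followed the same order. The ratio of carriers to non-carriers was 1.39 at codon 2, 1.33 at codon 3, 1.26 at codon 4, 1.26 at codon 5, 1.17 at codon 6 and 1.10 at codon 7. At codon 1 it was 4.99, with a density of 7.13 ± 0.40 in carriers and 1.43 ± 0.04 in non-carriers (SD, n = 4 each). The excess just after the start codon was therefore small beside that at the start codon, and both groups stayed below the reference level at codons 2 to 5.

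Windows further on differed less. Codons 6 to 10 had 0.668 ± 0.028 in carriers and 0.604 ± 0.021 in non-carriers, and the groups overlapped (SD, n = 4 each, exact p = 0.0571). Codons 11 to 20 had 0.766 ± 0.022 and 0.711 ± 0.019, and codons 41 to 50 had 0.880 ± 0.021 and 0.842 ± 0.009, carriers first (SD, n = 4 each, exact p = 0.0286 for both). The calls of those last 2 windows were lost when each gene was weighted equally (exact p = 0.20 and 0.486). Codons 21 to 30 had 0.771 ± 0.019 in carriers and 0.760 ± 0.029 in non-carriers, and codons 31 to 40 had 1.11 ± 0.02 in carriers and 1.09 ± 0.02 in non-carriers, neither beyond the spread (SD, n = 4 each, exact p = 0.514 and 0.229).

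**Figure D2:**
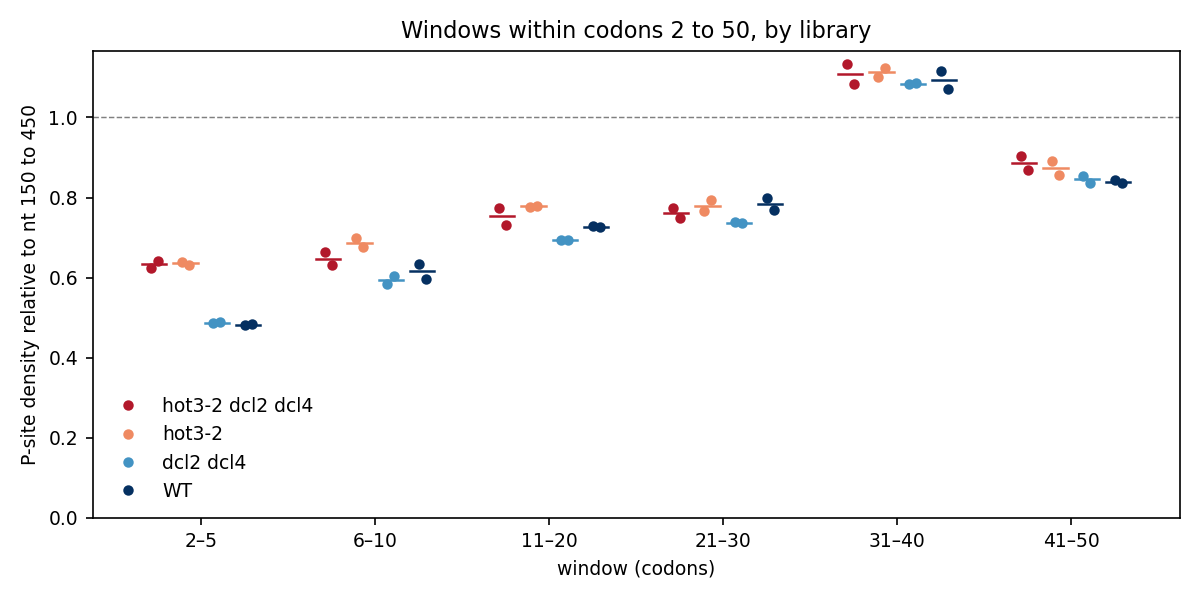
P-site density relative to nt 150 to 450 in 6 windows of codons 2 to 50, 1 point per library and a bar at the mean of each genotype. At codons 2 to 5 the 4 hot3-2 carriers sit between 0.625 and 0.642 and the 4 non-carriers between 0.482 and 0.489, and at codons 21 to 40 the genotypes overlap.

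Over the single codons from 2 to 150, the 4 carriers lay above all 4 non-carriers at 12 of 149 codons (8.05%) and below them at 8 (5.37%). In codons 2 to 50 they lay above at 10 of 49 and below at 0. The 10 were codons 2, 3, 4, 5, 8, 12, 18, 43, 46 and 49, so 5 of the first 9 codons after the start and 5 of the 40 that followed. In codons 51 to 150, which form the reference and so average to about 1 in each library, they lay above at 2 of 100 and below at 8.

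Because some genes had footprints in only part of their coding sequence, the windows were measured again in genes with 1 annotated coding isoform, an alternative chosen after the data were seen. In those 9410 transcripts codons 2 to 50 had 0.787 in carriers and 0.722 in non-carriers (n = 4 each, exact p = 0.0286). In 5430 transcripts whose first coding exon is at least 500 nt long, also chosen afterwards, the values were 0.759 in carriers and 0.696 in non-carriers, and the groups overlapped (n = 4 each, exact p = 0.0857).

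The excess at codons 2 to 5 was present in genes with a high and with a low start codon signal. Genes were ranked by codon 1 in the 2 hot3-2 libraries, and the values were taken from dcl2 dcl4 and hot3-2 dcl2 dcl4. In the quartile with the highest codon 1, codons 2 to 5 had 0.889 and 0.967 in hot3-2 dcl2 dcl4, against 0.670 and 0.630 in dcl2 dcl4, a ratio of 1.43. In the quartile ranked lowest, the values were 0.395 and 0.355 in hot3-2 dcl2 dcl4, against 0.306 and 0.284 in dcl2 dcl4, a ratio of 1.27. The quartiles between had ratios of 1.10 and 1.26, the lower-ranked first. As measured in hot3-2 dcl2 dcl4, codon 1 was no lower in the lowest quartile than in the next, with 0.251 and 0.224. A second ranking was made in the 2 hot3-2 dcl2 dcl4 libraries, with the values taken from WT and hot3-2. From the lowest to the highest quartile its ratios were 1.55, 1.15, 1.22 and 1.37. The end quartiles thus came in opposite orders in the 2 rankings, and in neither did the ratio rise steadily with codon 1.

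Amino acids differed in how often they were in the P site. The occupancy of an amino acid is its number of P sites in codons 2 to 50 divided by the number an even spread over each gene's 49 codons would give, over 2078 genes. Aspartate was at 1.55 and glycine at 1.51 on average over the 8 libraries, whereas glutamine was at 0.643, isoleucine at 0.789 and histidine at 0.798. In codons 51 to 99 the same measure gave 1.11 for aspartate, 1.28 for glycine and 1.58 for threonine, which was at 0.952 in codons 2 to 50.

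Methionine stood apart between the groups, with an occupancy of 1.303 ± 0.08 in hot3-2 carriers and 1.07 ± 0.06 in non-carriers (SD, n = 4 each). Leucine followed with 1.07 ± 0.02 in carriers and 1.02 ± 0.02 in non-carriers. Carriers lay above all non-carriers for these 2 of 20 amino acids (10%) and below them for 1 of 20 (5%), glutamine, with 0.626 ± 0.017 in carriers and 0.661 ± 0.008 in non-carriers. For each of the 3 the exact p was 0.0286, and no amino acid passed after adjustment over 20 (adjusted p = 0.191 for each of the 3). At codon 2 itself, methionine held 3.74% of P sites in carriers and 1.47% in non-carriers, among 407 transcripts with a methionine there.

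The methionine value led to a look at AUG in all 3 reading frames, a measure added after the data were seen. The density of a trinucleotide in a frame is its P sites per position in codons 2 to 50, divided by the density of the same frame in the reference window. AUGs in frame 0 had 1.199 and 1.317 in hot3-2 dcl2 dcl4, 1.32 and 1.24 in hot3-2, 0.914 and 0.881 in dcl2 dcl4, with 0.973 and 0.921 in WT. AUGs in frame 1 had 4.47 and 5.03 in hot3-2 dcl2 dcl4, 5.55 and 6.20 in hot3-2, 2.27 and 2.37 in dcl2 dcl4, with 3.09 and 2.63 in WT. AUGs in frame 2 had 3.65 and 2.98 in hot3-2 dcl2 dcl4, 2.47 and 3.19 in hot3-2, 0.528 and 0.692 in dcl2 dcl4, with 0.868 and 1.10 in WT. In each frame all 4 carriers lay above all 4 non-carriers.

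The ratio of carriers to non-carriers at AUG was 1.38 in frame 0, 2.05 in frame 1 and 3.86 in frame 2, over 13467, 19920 and 6099 positions with 10964, 3673 and 550 P sites. The median ratio over the trinucleotides measured was 1.03 in frame 0, 1.05 in frame 1 and 1.06 in frame 2. AUG had the highest ratio of the 61, 60 and 59 trinucleotides measured in the 3 frames, and CUG the next, with 1.26, 1.89 and 2.06. At CUG the groups overlapped in frame 2 (exact p = 0.0571), and in frames 0 and 1 the exact p was 0.0571 on leaving out either WT or either dcl2 dcl4 library. Carriers lay above all non-carriers for 5 of 61 trinucleotides in frame 0 (8.2%), 3 of 60 in frame 1 (5%) and 3 of 59 in frame 2 (5.08%). The exact p at AUG was 0.0286 in every frame, and adjusted over the trinucleotides of a frame it was 0.249, 0.528 and 0.421.

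**Figure D3:**
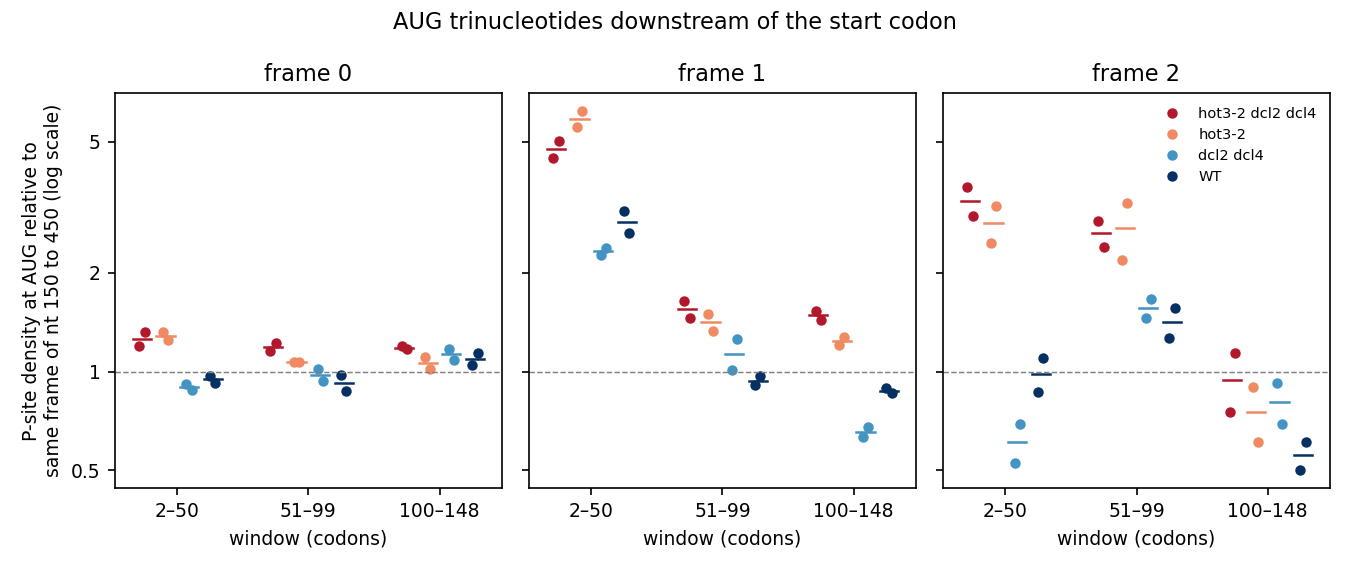
P-site density at AUG relative to the same reading frame of nt 150 to 450, on a log axis, in 3 windows and 3 frames, 1 point per library and a bar at the mean of each genotype. In codons 2 to 50 every hot3-2 carrier lies above every non-carrier in each frame, with ratios of 1.38, 2.05 and 3.86.

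The same ratio at AUG was smaller further into the coding sequence in frames 0 and 2. In codons 51 to 99 it was 1.19 in frame 0, 1.43 in frame 1 and 1.801 in frame 2, and the groups did not overlap (exact p = 0.0286 in each, n = 4 each). In codons 100 to 148 it was 1.01 in frame 0, 1.78 in frame 1 and 1.25 in frame 2, and the groups overlapped in frames 0 and 2. The difference between these windows was not tested. Without the 10 positions with the most P sites the ratios in codons 2 to 50 were 1.47, 2.89 and 3.72, and in genes with 1 annotated isoform 1.22, 3.72 and 5.99.

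Some AUGs of frame 0 are the start codon of another annotated isoform of the gene. At these 801 positions density was 3.38 ± 0.46 in carriers and 1.29 ± 0.10 in non-carriers, a ratio of 2.62 (SD, n = 4 each). At the other 12666 positions of frame 0 it was 1.17 ± 0.06 in carriers and 0.907 ± 0.038 in non-carriers, a ratio of 1.29 (SD, n = 4 each). The groups did not overlap in either class.

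The base after the AUG went with the size of the difference. With a G after the AUG, density in frame 0 was 1.61 ± 0.07 in carriers and 0.961 ± 0.075 in non-carriers. With another base it was 1.08 ± 0.09 in carriers and 0.899 ± 0.036 in non-carriers (SD, n = 4 each). The ratios for a G and for another base were 1.68 and 1.21 in frame 0, 3.11 and 1.69 in frame 1 and 5.89 and 2.10 in frame 2. The log2 difference between the 2 classes of context was larger in carriers than in non-carriers by 0.48 in frame 0 and 0.88 in frame 1 (exact p = 0.0286 for both, n = 4 each, adjusted over 3 frames 0.0429). In frame 2 it was larger by 1.52 and the groups overlapped (exact p = 0.0571). G followed 34.8%, 25.1% and 47.4% of the AUGs in the 3 frames, and this split too was added after the data were seen. Of the contexts read at AUG only this one was tested, so the adjustment covers the 3 frames and no other context. The exact p of 0.0286 is the lowest possible, and the test was not repeated with a replicate block or with a library left out.

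A purine 3 bases before the AUG gave no single order. In frame 0 the ratio was 1.55 with A or G there and 1.09 with C or U, whereas in frame 1 it was 1.69 with A or G and 3.19 with C or U, and in frame 2 it was 3.94 and 4.82. With both a purine there and a G after the AUG, the ratios were 2.38, 3.05 and 5.88 in frames 0, 1 and 2. With neither they were 1.31, 3.13 and 2.63. These were read without a test.

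Single positions with enough P sites were then read one by one, as the percent of the gene's P sites over codons 2 to 150. At least 60 P sites over all libraries were asked of AUGs in frame 0 and at least 15 out of frame. Since these minimums were summed over all libraries, a position could pass through the group where it was high, as at AT3G49900 with 15 of its 15 P sites in carriers, so no count of positions is given. The AUGs described next are those higher in all carriers than in all non-carriers, and the opposite held at codon 47 of Tudor1 and codon 35 of CAB1.

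GLX1, a glyoxalase family gene, had 12, 11, 37 and 28 P sites at the AUG of codon 40 in the 2 hot3-2 dcl2 dcl4 and the 2 hot3-2 libraries. It had 7 and 3 in dcl2 dcl4, with 5 and 5 in WT. As shares of the gene these came to 20.1% ± 6.7 in carriers and 3.69% ± 1.204 in non-carriers (SD, n = 4 each). This AUG starts another annotated isoform of GLX1, a gene with 6 annotated isoforms.

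GLY3 is annotated as glyoxalase II 3. At its codon 39 it had 9 and 4 P sites in hot3-2 dcl2 dcl4, 26 and 35 in hot3-2, 0 and 3 in dcl2 dcl4, with 7 and 9 in WT. The share was 40.5% ± 12.2 in carriers and 8.17% ± 6.08 in non-carriers (SD, n = 4 each), and no annotated isoform starts there.

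AOC4 is an allene oxide cyclase, an enzyme of jasmonate synthesis, and its codon 3 is another ATG. That codon had 29 and 8 P sites in hot3-2 dcl2 dcl4, 7 and 6 in hot3-2, 1 and 2 in dcl2 dcl4, with 7 and 3 in WT. The share was 31.7% ± 18.6 in carriers and 4.30% ± 2.17 in non-carriers (SD, n = 4 each), while AOC4 had 0 P sites at codon 1 in all 8 libraries. AT1G18720, annotated as an ER membrane protein, had a share of 29.5% ± 10.0 in carriers and 11.6% ± 4.2 in non-carriers at codon 5, also with 0 at codon 1. An empty codon 1 was common, since only 3288 transcripts had any P site there. TSO2, where the groups overlapped at the AUG of codon 30, and Tudor1, where carriers were lower, had 0 there too.

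Out of frame, AT1G52510, an alpha/beta-hydrolase, had 7 and 15 P sites at the frame 1 AUG of codon 44 in hot3-2 dcl2 dcl4, 24 and 27 in hot3-2, 2 and 10 in dcl2 dcl4, with 3 and 4 in WT. SGR4, a v-SNARE of vesicle transport, had 6, 4, 14 and 15 in carriers and 5, 4, 2 and 2 in non-carriers at codon 6. AT5G58720 had 1, 4, 10 and 12 in carriers and 0, 0, 4 and 0 in non-carriers at codon 22. AT3G12210 had 6, 6, 7 and 10 in carriers and 0, 0, 5 and 0 in non-carriers at the frame 2 AUG of codon 12. All these counts were low, and AT3G49900, AT5G44320, AT2G01820 and GER1, the remaining AUGs higher in carriers, had 15 to 32 P sites in all.

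CUG, which differs from AUG in its first base, came next after AUG in each frame. UBA1, a ubiquitin-activating enzyme, had 47 and 26 P sites at the frame 1 CUG of codon 37 in hot3-2 dcl2 dcl4, 73 and 33 in hot3-2, 14 and 6 in dcl2 dcl4, with 15 and 11 in WT. These were 56.8% ± 8.7 of the gene's P sites over codons 2 to 150 in carriers and 18.2% ± 6.9 in non-carriers (SD, n = 4 each). The overall difference of CUG in frame 1 fell short of the threshold without the 10 positions with the most P sites (exact p = 0.0857).

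Across genes, P sites in codons 2 to 50 were often piled on single codons, and in the genes with 1 isoform plotted for such peaks the groups overlapped. The early share of a gene is the percent of its P sites over codons 2 to 150 that lie in codons 2 to 50, and an even spread would give 32.9%. Among 985 genes with a mean of at least 50 P sites per library, the median share was 22.0% (quartiles 8.15% and 43.4%), and 622 genes, 63.1%, lay below the even share. The library medians were 24.0% and 22.4% in hot3-2 dcl2 dcl4, 22.0% and 21.3% in hot3-2, 21.2% and 20.9% in dcl2 dcl4, with 21.6% and 21.6% in WT. In 222 genes a single codon held at least 20% of the P sites over codons 2 to 150, and in 46 at least 50%.

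The 2 sequences below, each the 28 nt footprint of such a peak with its P-site codon in capitals, come from genes with 1 annotated isoform and were chosen after their values were seen. The sequence of TIP2 is on the minus strand at chr3:9723577-9723604, and that of AT1G08360 on the plus strand at chr1:2636739-2636766.

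TIP2 codon 38: ttcgtcttcgccGGCtcaggctccggaa
AT1G08360 codon 37: ctccagatcggtCTGaagaactatgacc

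TIP2, a water channel of the vacuolar membrane, had 48.99% and 52.6% of its P sites at codon 38 in hot3-2 dcl2 dcl4, 62.0% and 51.9% in hot3-2, 57.9% and 58.5% in dcl2 dcl4, with 48.9% and 47.9% in WT. AT1G08360, a ribosomal protein of the L1 family, had 60.2% and 53.9% at codon 37 in hot3-2 dcl2 dcl4, 71.3% and 78.0% in hot3-2, 57.0% and 69.6% in dcl2 dcl4, with 69.5% and 67.2% in WT. In both genes the groups overlapped.

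Other genes had peaks of the same kind. EIF2 ALPHA, a subunit of the factor that brings the initiator tRNA, had 88.7% ± 6.6 at codon 10 in carriers and 85.8% ± 1.9 in non-carriers (SD, n = 4 each). The values for c-NAD-MDH1, a malate dehydrogenase, at codon 11 were 47.4% ± 1.4 in carriers and 46.3% ± 5.5 in non-carriers, and those for the ribosomal protein S3 gene AT3G53870 at codon 18 were 43.1% ± 3.7 and 42.3% ± 5.6, carriers first. NUC-L1, a nucleolin, had 34.5% ± 6.6 in carriers and 35.8% ± 3.3 in non-carriers at codon 46. In each of these the groups overlapped.

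**Figure D4:**
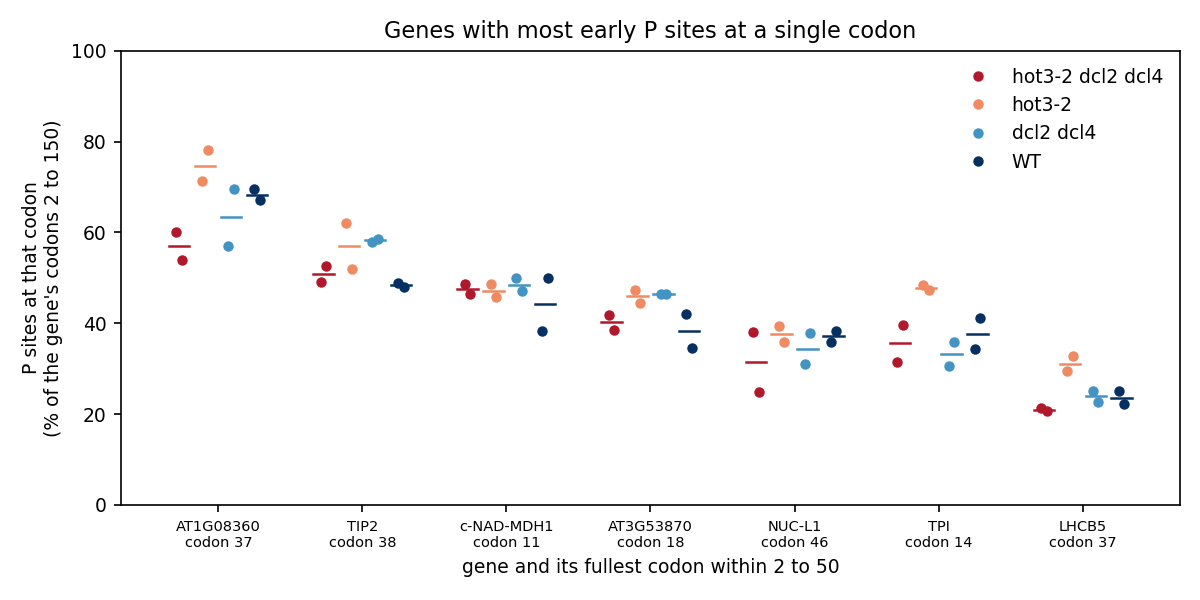
Percent of a gene's P sites over codons 2 to 150 that lie at its fullest codon within 2 to 50, for 7 genes with 1 annotated isoform, 1 point per library and a bar at the mean of each genotype. In all 7 genes the hot3-2 carriers overlap the non-carriers, for example at 65.8% and 65.8% on average in AT1G08360. AT1G58983, which shares its footprint with other genes and is not plotted, did not overlap, with 83.6% in carriers and 74.2% in non-carriers at codon 39. Summed over the 4 genes that share this footprint the groups overlapped, with 80.7% in a hot3-2 dcl2 dcl4 library and 81.6% in a dcl2 dcl4 library. Both WT libraries, at 67.9% and 68.9%, lay below all others.

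Density averaged 1.6, 1.33 and 1.5 over the 8 libraries at codons 37, 38 and 39, where the peaks of TIP2 and AT1G08360 lie. LHCB5, a chlorophyll-binding protein of photosystem II, gave 20.8% of the P sites at codon 37 and 22.8% at codon 38. At codon 39 the sequence cgtggtccaagaGGCcgtggaagacgtg is shared by 4 ribosomal protein S2-like genes on chromosome 1, AT1G58380, AT1G58684, AT1G58983 and AT1G59359, so their footprints cannot be told apart. Summed over the 4 genes, codon 39 held 82.8% and 80.7% of the P sites over codons 2 to 150 in hot3-2 dcl2 dcl4, 82.4% and 85.9% in hot3-2, 81.6% and 79.7% in dcl2 dcl4, with 67.9% and 68.9% in WT. The WT libraries lay below the other 3 genotypes. The 100 genes with the most P sites gave 13.0% to 14.7% of the P sites in codons 2 to 5 of a library and 34.3% to 38.5% in codons 31 to 40.

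The test of the early share gene by gene called few genes at this depth, and the number moved with the minimum of P sites. The effect is the log2 odds ratio of a P site lying in codons 2 to 50, and adjusted p-values come from the quasi-binomial model with limma's moderated dispersion. For the mean hot3-2 effect 0 of 985 genes (0%) passed an adjusted p of 0.05, with 105 at an unadjusted p under 0.05, of which 65 were higher in carriers. Limma on the log2 ratio called 0 with a pseudocount of 0.5 and 2 with a pseudocount of 2. With no minimum, 17 of 4401 genes passed. On data simulated at the same depth the model recovered 11% of 2-fold and 53% of 4-fold changes. The median log2 odds ratio over the 985 genes was 0.09.

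For hot3-2 against WT 2 of 985 genes passed (0.203%), against 10 at a mean of at least 100 P sites and 30 with no minimum. SAC52, a ribosomal protein of the large subunit, fell to early shares of 2.68% and 3.07% in hot3-2, against 6.50% and 8.89% in WT (log2 odds ratio -1.46 ± 0.20 SE, adjusted p = 0.0375). It had 3.81% and 3.43% in hot3-2 dcl2 dcl4, against 4.33% and 4.12% in dcl2 dcl4 (log2 odds ratio -0.23, adjusted p = 0.819). HOG1, an S-adenosylhomocysteine hydrolase, rose to 60.1% and 57.7% in hot3-2, against 47.2% and 46.2% in WT (log2 odds ratio 0.72 ± 0.11 SE, adjusted p = 0.0375). Its shares were 54.9% and 55.2% in hot3-2 dcl2 dcl4, against 57.6% and 55.1% in dcl2 dcl4. These calls depended on single libraries: 1 gene passed without WT replicate 1, and 0 passed without each of the other 7.

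For hot3-2 dcl2 dcl4 against dcl2 dcl4 0 of 985 genes passed, with 76 at an unadjusted p under 0.05, and for the interaction 0, with 91. For dcl2 dcl4 against WT 2 of 985 passed (0.203%), against 13 at a mean of at least 100 P sites and 35 with no minimum. AT1G06760, annotated as a winged-helix DNA-binding protein, rose to 64.6% and 63.2% in the dcl2 dcl4 libraries, against WT shares of 48.7% and 49.7% (log2 odds ratio 0.87 ± 0.12 SE, adjusted p = 0.0258). MTO3, an S-adenosylmethionine synthetase, fell to 16.8% and 14.7% in the dcl2 dcl4 libraries, against WT shares of 42.5% and 35.6% (log2 odds ratio -1.78 ± 0.24 SE, adjusted p = 0.0258). Without WT replicate 2 again 2 genes passed, and without each of the other 7 libraries 0 did.

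By function, no list held a gene that passed for the mean hot3-2 effect. Lists were made from words in the annotated product or symbol, so their names describe their members only roughly. LOS1, annotated as a ribosomal protein S5/elongation factor G family protein, counts among both ribosomal proteins and elongation factors. The pectin list holds AT5G62350 and AT5G20740, annotated as invertase/pectin methylesterase inhibitor proteins, and the lipid list holds the phospholipase PLDALPHA1. Of 61 cytosolic ribosomal protein genes tested, 36 had a log2 odds ratio above 0 and 25 below, with a median of 0.12. Over all 985 genes 57.3% were above 0, with a median of 0.09. Summed over the 124 transcripts of this list, codons 2 to 5 had 0.438 ± 0.048 in carriers and 0.322 ± 0.028 in non-carriers, without overlap (SD, n = 4 each), a ratio of 1.36 beside 1.31 for all transcripts. Over codons 2 to 50 the same list had 0.976 ± 0.054 in carriers and 1.02 ± 0.08 in non-carriers, and the groups overlapped. Of 24 nuclear photosynthesis genes 17 were above 0 (median 0.30), of 8 pectin-modifying enzymes 7 (0.38), of 14 lipid transfer and anther lipid genes 11 (0.21), of 15 tubulins and actins 9 (0.09) and of 10 initiation factors 6 (0.08). Of 13 elongation factors 5 were above 0 (median -0.22), of 18 heat shock proteins and chaperones 6 (-0.10) and of 3 genes with the largest start codon rises 2 (0.23).

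The lists also differed in how full codons 2 to 50 were. Photosynthesis genes had a density of 0.123 ± 0.033 in carriers and 0.095 ± 0.024 in non-carriers at codons 2 to 5, and pectin-modifying enzymes 0.1799 ± 0.1596 and 0.037 ± 0.034, carriers first (SD, n = 4 each). In both the groups overlapped. Summed over transcripts, elongation factors had 0.246 ± 0.032 in carriers and 0.279 ± 0.022 in non-carriers over codons 2 to 50, under the 0.840 and 0.796 of all genes. Gene by gene they were not low, with a median early share of 22.1% over the 13 tested, beside 22.0% over all 985 genes. The sum includes AT1G07930 and AT1G07940, EF1A genes of nearly the same coding sequence with 23232 and 23197 P sites over codons 2 to 150. They had early shares of 0.94% and 0.89% in carriers and 1.31% and 1.45% in non-carriers. A further EF1A gene, AT1G07920, had 20.5% ± 2.1 in carriers and 20.5% ± 3.1 in non-carriers (SD, n = 4 each). How footprints were split between such copies was not tested.

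Proteins that enter the secretory pathway often begin with a hydrophobic stretch that the signal recognition particle binds once it leaves the ribosome. Genes were split by the largest mean Kyte-Doolittle hydropathy of 12 residues within residues 2 to 30, at 2.2 or above in 2433 genes and below it in 14355. In genes with the hydrophobic stretch, density averaged 0.458 (0.409 to 0.498 over the 8 libraries) at codons 6 to 10 and 0.572 (0.448 to 0.675) at codons 11 to 20. In the other genes it averaged 0.672 (0.618 to 0.742) and 0.772 (0.734 to 0.821). The order was the opposite at codons 21 to 30, with 0.892 (0.832 to 0.967) and 0.739 (0.710 to 0.769), and at codons 41 to 50, with 0.947 (0.894 to 1.01) and 0.843 (0.809 to 0.895), genes with the stretch first. Between them, at codons 31 to 40, genes with the stretch were again lower, with 0.909 (0.814 to 1.004) against 1.14 (1.09 to 1.18). All 8 libraries shared each of these orders, but they read the same transcripts and so are not replicates of a contrast between gene classes. Orders shared by all 8 libraries also occurred past codon 50. Codons 56 to 60 had 1.115 (0.996 to 1.24) and 0.792 (0.759 to 0.820), genes with the stretch first. Codons 81 to 85 had 0.735 (0.710 to 0.791) and 1.089 (1.006 to 1.15) in the same order of classes.

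**Figure D5:**
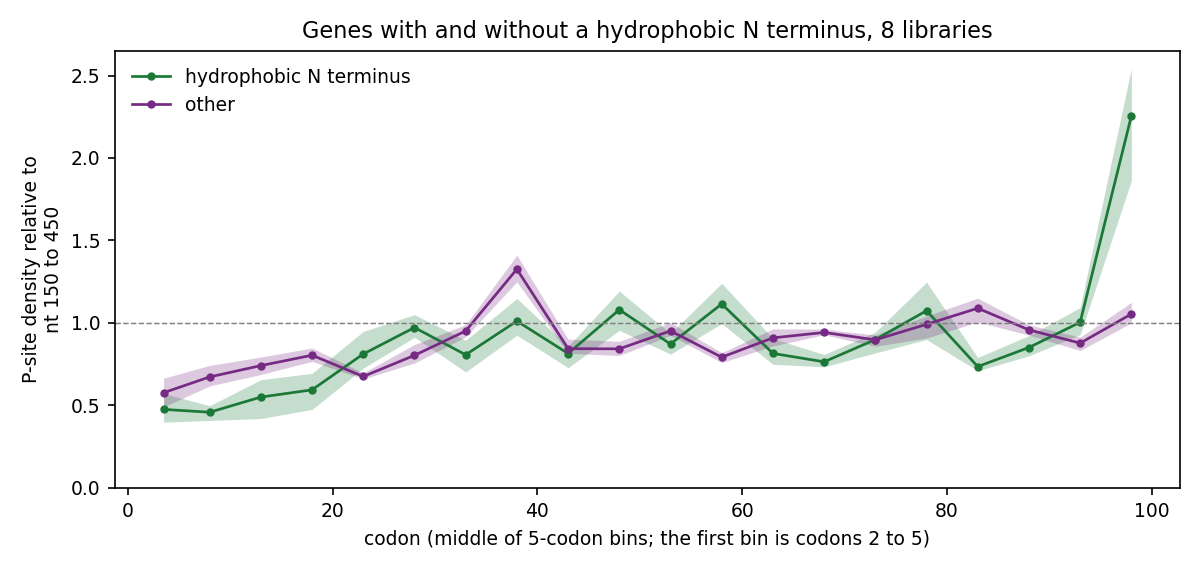
Mean P-site density in bins of 5 codons relative to nt 150 to 450, for genes with a hydrophobic N terminus (green, 2433 genes) and other genes (purple, 14355 genes), with bands from the lowest to the highest of 8 libraries. Green lies below purple up to codon 20 and above it at codons 21 to 30, with 0.909 against 1.14 over codons 31 to 40, and the peak at codons 96 to 100 is mostly VSP1.

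The peak at codons 96 to 100 lies in the reference window of the first class, and VSP1, a vegetative storage protein, gave 57.5% of the P sites there in that class. Without VSP1, chosen after the data were seen, the first class had 0.502 at codons 6 to 10, 0.621 at codons 11 to 20, 0.950 at codons 21 to 30 and 0.927 at codons 41 to 50, and the 4 orders stayed the same in all 8 libraries. The hot3-2 alleles did not move the contrast between classes past the spread over codons 2 to 50, where the log2 difference between classes was -0.12 in both groups and changed by 0.0039 (exact p = 0.886, n = 4 each).

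Genes differed in how the files cover codons 2 to 50. Of 342 tested genes with several annotated coding isoforms, 11 had all their P sites over codons 2 to 150 in codons 2 to 50 and 4 had none there, against 0 and 2 of 643 genes with 1 isoform. The deepest genes with an early share of 100% were HAP6, ATL5, FUM1, PIP1B and UNE5, with 3 or 4 isoforms each, and the deepest at 0% were PSAL, AT5G16110, AT1G73620, AT3G01060 and PAG1. At the first junction between coding exons the P sites 15 and 14 nt upstream numbered 561 and 58 and those 10 and 11 nt downstream 12 and 27, whereas the neighbouring positions 16 nt upstream and 12 nt downstream held 1957 and 2339, summed over 1692 transcripts. How much these features move the value of a single gene was not tested.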

How the data were processed

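Ribosome footprints were sequenced from 8 inflorescence libraries, 4 genotypes with 2 each. The authors trimmed reads with cutadapt, mapped them with STAR to TAIR10 and assigned P sites by footprint length with RiboTaper. The deposited files list, for each footprint, its transcript and the positions of its ends and P site in nt, with no normalization. How footprints that match several places were placed is not given in the sources used here for Ribo-seq.

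P sites of 28 nt footprints were counted by codon and divided by the density at nt 150 to 450. Libraries were compared by two-sided exact permutation tests over 70 assignments (lowest p 0.0286). Each gene's early share entered a quasi-binomial fit, its dispersion moderated with limma 3.58.1 (R 4.3.3) and p-values adjusted by Benjamini-Hochberg over 985 genes. The model was tested on simulated data. Sequences were read from the TAIR10.1 genome with Biopython 1.88, and 16788 of 16811 transcripts matched its annotation.

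Named genes were those called for the mean hot3-2 effect (0), the 5 highest and 5 lowest early shares, HOT3 and the deepest members of 9 gene lists; those called in other contrasts, the single-codon peaks and the AUG and CUG sites were chosen after their values were seen. The members, lists and tests were chosen with earlier results of these data known. Alternatives to the filter, lengths, weighting, reference window and test were tried, each library was left out in turn, and 15 alternatives were added after seeing the data. Same-numbered libraries did not deviate together (correlations of -0.07 to 0.0726). Libraries of a genotype differed beyond sampling noise (chi-square per degree of freedom 2.09 to 2.86).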

Additional observations from a re-analysis of the deposited data

Results flagged for a closer look

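In 70 checks of 4 libraries each, 4 had a library far from the other 3 of its group, and chance alone gives about 1 in 20. Replicate 2 of hot3-2 dcl2 dcl4 had the lowest density of the hot3-2 carriers over codons 2 to 50, 0.8175, where the others had 0.8452 to 0.8508, and over codons 11 to 20, 0.7325, where the others had 0.7747 to 0.7795. The same library had a lysine occupancy of 0.876 in codons 2 to 50, where the other 3 carriers had at most 0.8351. Replicate 1 of dcl2 dcl4 had a density of 1.17 at CUG in frame 2, where the other non-carriers had 0.5033 to 0.5753. The cause was not tested.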

How the results depend on the processing

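The excess of hot3-2 carriers over non-carriers at codons 2 to 5 kept its direction under all 12 alternatives and 8 left-out libraries (0.1468 to 0.1525 on leaving out a library). With a replicate block, or with permutations within the DCL background, it was 0.1493, and that of codons 2 to 50 was 0.04428. The exact p was then 0.05556, the lowest possible there, and so it was for AUG in each frame. Of 12 alternatives, 9 ended the call of codons 11 to 20 and 6 that of codons 41 to 50, while 7 took codons 6 to 10 past the threshold. The 9 and the 6 include the replicate block and the permutations within the DCL background, which end any call because their lowest p is 0.05556. The difference over codons 2 to 50 was 0.03551 with equal weights, 0.03957 with frame 0 only, 0.04098 with 26 to 29 nt footprints and 0.06298 with a first coding exon of at least 500 nt (exact p 0.0857, 0.0571, 0.0571 and 0.0857). It was 0.0406 to 0.05172 on leaving out a library. In coding sequences of 1200 nt or more, codons 31 to 40 reversed to -0.02002 and 5 codons of 2 to 50 were higher. On leaving out a library 10 to 17 codons were higher and 0 to 1 lower, with 17 without replicate 2 of hot3-2 dcl2 dcl4. Amino acids lower in carriers numbered 3 with 26 to 29 nt footprints, 0 over codons 6 to 50 and 1 to 2 on leaving out a library. The class difference for hydrophobic N termini, 0.0039 and not called, was -0.01399 at a threshold of 2.5 and -0.01726 to 0.03029 on leaving out a library (reversed at -0.01726, -0.01408 and -0.004081).

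Calls per gene moved with the filter and the test. For hot3-2 against WT, 10 genes passed at a mean of at least 100 P sites, 30 with no minimum, 1 with frame 0 only, 0 to 1 on leaving out a library and 0 under the replicate block. At a mean of at least 20 P sites, with codons past 100 as reference, over codons 2 to 10 or 2 to 5, and with limma on the log2 ratio, 0 passed. For dcl2 dcl4 against WT, 13 passed at 100 P sites, 35 with no minimum, 1 with limma at a pseudocount of 2, 1 under the replicate block and 0 to 2 on leaving out a library. Over codons 2 to 10 or 2 to 5, and with limma at a pseudocount of 0.5, 0 passed. For the mean hot3-2 effect, 17 passed with no minimum, 2 with 26 to 29 nt footprints and 2 with limma at a pseudocount of 2. For hot3-2 dcl2 dcl4 against dcl2 dcl4, 2 passed with no minimum and 1 with limma at a pseudocount of 0.5. For the interaction, 2 passed with no minimum and 2 with codons past 100 as reference. The cause was not tested. AUG kept its direction and call in each frame on leaving out any library.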
